A study of Mus musculus with 2 samples.

Results

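The mRNA of the nuclear genes for oxidative phosphorylation was compared between 2 cultures of the mouse cell line 1F9, a line derived from a thymoma of an E2A-deficient (E2A -/-) animal. In the first culture, a retrovirus had introduced E47, a basic helix-loop-helix transcription factor made from the E2A gene, as a fusion with part of the estrogen receptor (E47-ER). In the control culture the virus carried only the bHLH region of E47 in the same kind of fusion (bHLH-ER), without the N-terminal transactivation domain. Both cultures were treated with 4-hydroxytamoxifen, which activates such fusions, for 6 hours starting 1 day after infection, and infected cells were purified by human CD25, a marker carried by both viruses. Each construct was represented by 1 Cy3 oligonucleotide array, and uninfected or untreated cells were not analysed here. The sample titles tell the constructs apart, while the free text of both samples names the E47 fusion.

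The genes were chosen by symbol, as all those named for subunits or assembly factors of the respiratory complexes (prefixes Nduf, Uqcr, Cox4 to Cox8 and Atp5, the Sdh subunits, Cyc1 and Cycs). This gave 63 of the 10208 genes with a named probe, each with 1 probe. RefSeq holds 98 protein-coding mouse symbols of this kind, so the other 35 were not analysed here, and neither were the subunits encoded by mitochondrial DNA. The 63 were 24 genes of complex I, 2 of complex II, 8 of complex III, 15 of complex IV, 13 of complex V and cytochrome c.

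Oxidative phosphorylation takes place in the inner mitochondrial membrane. Complex I and complex II pass electrons from NADH and succinate to ubiquinone, complex III hands them on to cytochrome c, and complex IV gives them to oxygen. Complexes I, III and IV pump protons, and complex V, the ATP synthase, uses the returning protons to make ATP. Most subunits are encoded in the nucleus, and several complex IV subunits have alternative isoforms that are used mainly in heart and skeletal muscle, lung or testis. Dividing thymocytes use respiration beside glycolysis.

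Values are the deposited intensities, which are linear and scaled to an array median near 1. Differences are log2 intensities, centred on each array's median, on the E47-ER array minus those on the bHLH-ER array. A gene counted as measured if the mean of its 2 centred log2 values was at or above that of the middle probe, at an intensity of about 1.02 on the E47-ER array and 1.03 on the bHLH-ER array. This held for 5563 genes. With 1 array per construct no p-value or replicate error can be given, and the only repeats are genes with several probes, whose differences had a pooled SD of 0.20 over 55 measured genes. That SD holds no spread between cultures. A probe's brightness also depends on its sequence, so intensities are compared between arrays and not between genes. The arrays hold RNA of whole cultures, so fewer cells of a type and less RNA per cell cannot be told apart.

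The T lineage origin of the cells was visible on both arrays. All 12 T lineage markers with a probe were measured, with a median difference of 0.51 and a summed intensity of 497 on the E47-ER array and 327 on the bHLH-ER array. Of these, 11 were higher with E47-ER, and Cd3e was lower (16.4 with E47-ER and 23.1 with bHLH-ER, -0.47). Of all 5563 measured genes, 3709 were higher with E47-ER, and their median difference over all 5563 was 0.11. Bright probes weigh most in the sums, such as Rag1 (104 with E47-ER and 52.1 with bHLH-ER). None of 5 NK and cytotoxic markers was measured, with sums of 0.331 on the E47-ER array and 0.547 on the bHLH-ER array, and 1 of 6 myeloid markers was (Itgam, 1.44 with E47-ER and 0.866 with bHLH-ER). Itgam was below the level limit on the bHLH-ER array. Of the B lineage markers 3 of 6 were measured, with sums of 18.4 on the E47-ER array and 18.5 on the bHLH-ER array. Their members went opposite ways: Vpreb1 was 2.06-fold higher (4.36 with E47-ER and 2.14 with bHLH-ER), while Cd79a (-0.20) and Pax5 (-0.32) were lower. Pax5 lay at the level limit, with 0.927 on the E47-ER array, below that array's limit, and 1.17 on the bHLH-ER array. Its difference is therefore that of a probe with little signal. The 3 of 6 measured fibroblast markers were Thy1 (68.5 with E47-ER and 52.9 with bHLH-ER) and Vim (17.3 with E47-ER and 27.6 with bHLH-ER, 1.58-fold lower), which T cells also express, and Sparc (4.00 with E47-ER and 3.55 with bHLH-ER). Thy1 is also in the T lineage list, and the whole fibroblast list summed to 90.5 with E47-ER and 84.7 with bHLH-ER. The 2 of 3 measured erythroid markers were Tfrc, the transferrin receptor of dividing cells, and Car1, and that list summed to 87.8 with E47-ER and 96.8 with bHLH-ER. The part of other cell types in the values below was not tested.

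Oxidative phosphorylation genes were well expressed and nearly alike on the 2 arrays. Of the 63 genes, 59 were measured, with intensities from 1.68 to 395 (median 113) on the E47-ER array and from 1.45 to 356 (median 108) on the bHLH-ER array. Their differences ran from -0.12 to 0.74, with a median of 0.13 and quartiles of 0.02 and 0.21. All 5563 measured genes had a median of 0.11 and quartiles of -0.06 and 0.27. The median gene of this pathway was thus 1.09-fold brighter with E47-ER, against 1.08-fold for measured genes in general. Differences below 0 were found for 11 of the 59 genes (18.6%), against 33.3% of all measured genes. With the arrays' 75th percentiles set equal, they were found for 26 of the 59 (44.1%), against 50.3% of all measured genes. Of the 59 genes, 26 lay below the median of all measured genes, a count that no constant scaling of the arrays changes.

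**Figure D1:**
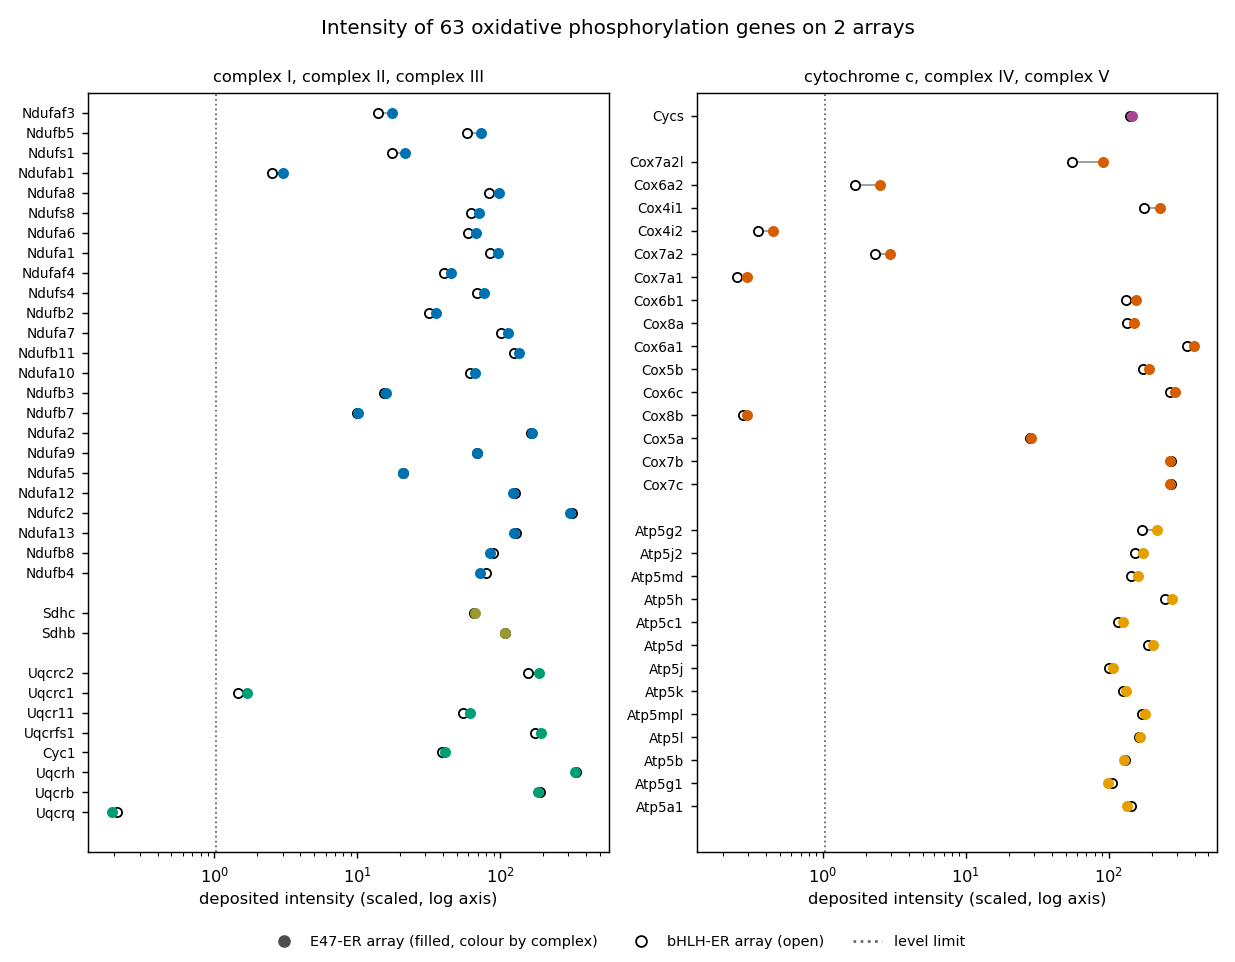
Deposited intensity (log axis) of each of the 63 genes on the E47-ER array (filled points, coloured by complex) and the bHLH-ER array (open points), ordered within each complex by the difference. The points of most genes nearly coincide; Cox7a2l shows the widest gap among them, and Uqcrq, Cox4i2, Cox7a1 and Cox8b lie left of the dotted level limit.

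Large differences were few. No gene of the pathway was 2-fold higher or lower, where 1.35% of all measured genes were higher and 0.27% lower. At 1.5-fold, 2 of 59 were higher and none was lower, where 5.41% of all measured genes were higher and 1.24% lower, so the members' counts are not above the background. The background counts were 301 higher and 69 lower genes, and 184 and 110 when the arrays' 75th percentiles were set equal. Within 1.25-fold in either direction lay 52 of the 59 (88.1%), against 75.3% of all measured genes, and the other 7 were all higher. These shares are not matched for level, and most members are brighter than most measured genes. At 1.25-fold or more higher, 19.4% of all measured genes were counted.

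The differences of these genes were spread less widely than those of measured genes in general, with an interquartile range of 0.18 against 0.32. Brighter probes vary less, so the same was computed at like level. The 29 members whose level lay in the middle 50% of the members' range had an interquartile range of 0.17 and a median of 0.09, and the 327 other genes in that level range had 0.26 and 0.11. Within 1 probe SD (0.20) of the median of all measured genes lay 50 of 59 members (84.7%) and 59.1% of all measured genes. These shares are not matched for level, so part of the gap can come from the members' brightness. At the top of the intensity range, above a centred level of 8, the 6 members had a median of -0.0014 and the 80 other genes one of 0.0087. Whether differences are compressed at that brightness was not tested.

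**Figure D2:**
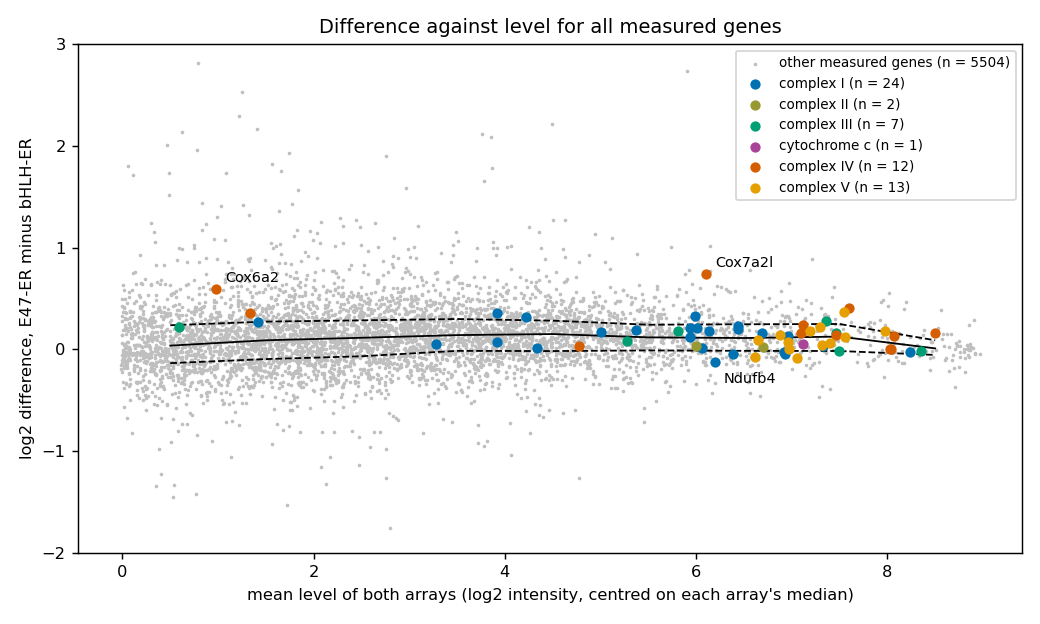
Difference (log2, E47-ER minus bHLH-ER) against mean centred log2 level for the 59 measured oxidative phosphorylation genes, coloured by complex, and the 5504 other measured genes in grey. The solid line is the median and the dashed lines the quartiles of the other genes in level steps of 1; most of the coloured points lie at levels of 5 or more and close to the solid line, with Cox7a2l above it.

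Complex I, the NADH dehydrogenase, is the largest of the complexes, and all of its 24 genes with a named probe were measured. Intensities ran from 3.04 to 309 on the E47-ER array and from 2.55 to 318 on the bHLH-ER array. The median difference was 0.15, and none passed 1.5-fold in either direction. Both iron-sulfur core subunits with a named probe were above the median of all genes. Ndufs1, which sits in the arm that oxidises NADH, had 21.5 with E47-ER and 17.4 with bHLH-ER, a 1.25-fold difference. Ndufs8, close to where ubiquinone is reduced, had 71.4 with E47-ER and 62.3 with bHLH-ER, 1.16-fold higher. The 20 accessory subunits had a median of 0.10, close to that of all measured genes.

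The accessory subunits spanned a range of 0.45 around that median, from Ndufb4 to Ndufb5, both of which belong to the membrane arm. Ndufb5 had 73.4 with E47-ER and 58.96 with bHLH-ER, 1.26-fold higher. The acyl carrier protein Ndufab1, which also serves mitochondrial fatty acid synthesis, followed at 1.20-fold (3.04 with E47-ER and 2.55 with bHLH-ER). Its probe was dim, and its difference went from 0.27 to 0.19 with 1 added to each intensity. Ndufb4 had 72.7 with E47-ER and 79.9 with bHLH-ER, the lowest difference of all 59 measured genes (-0.12). It was 1.09-fold lower, and 17.3% of all measured genes had a lower difference. RefSeq also lists the protein-coding copies Ndufb4b and Ndufb4c, and the sources used here do not say whether the probe tells them apart. Below 0 by at most 0.05 were also Ndufb8, Ndufa13, Ndufa12 and Ndufc2. Ndufc2 had 309 with E47-ER and 318 with bHLH-ER.

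The remaining complex I genes lay between these. Ndufa8, Ndufa6, Ndufa1, Ndufs4, Ndufb2 and Ndufa7 had differences from 0.16 to 0.23. Ndufs4, a small subunit needed for a stable NADH-oxidising arm, had 77.1 with E47-ER and 68.7 with bHLH-ER. Ndufb11, Ndufa10, Ndufb3, Ndufb7, Ndufa2, Ndufa9 and Ndufa5 had differences from 0.01 to 0.13, and those below 0.11 fell under 0 with the arrays' 75th percentiles set equal. The assembly factors Ndufaf3 and Ndufaf4, which act together while the complex is built, were 1.28-fold higher (17.6 with E47-ER and 13.9 with bHLH-ER) and 1.14-fold higher (45.6 with E47-ER and 40.4 with bHLH-ER).

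**Figure D3:**
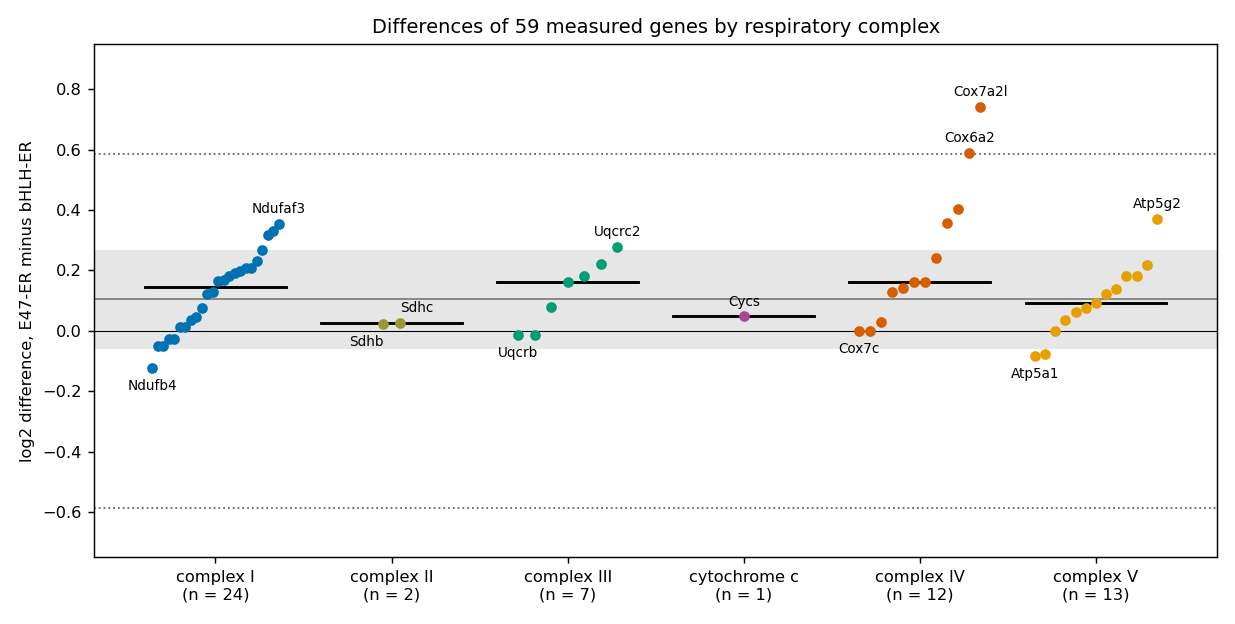
Differences (log2, E47-ER minus bHLH-ER) of the 59 measured genes by complex; each point is a gene, black bars are medians, the grey band and line are the quartiles and median of all 5563 measured genes, and dotted lines mark 1.5-fold. The medians of all complexes lie inside the grey band, and Cox7a2l and Cox6a2 are the points above the upper dotted line.

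Complex II, the succinate dehydrogenase that also belongs to the citric acid cycle, showed next to no difference in its 2 genes with a named probe. Sdhb, the iron-sulfur subunit, had 108 on both arrays (a difference of 0.02). Sdhc, which anchors the enzyme in the membrane, had 66.7 with E47-ER and 66.1 with bHLH-ER (0.03). Both differences were below the median of all measured genes. The mobile carrier cytochrome c (Cycs), which also triggers caspases when released from mitochondria, had 146 with E47-ER and 142 with bHLH-ER (0.05).

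Complex III, the cytochrome bc1 complex, had 7 measured genes of 8, with a median of 0.16 and none past 1.5-fold. The core proteins Uqcrc2 and Uqcrc1 had the highest differences. Uqcrc2 had 187 with E47-ER and 156 with bHLH-ER, 1.21-fold higher. Uqcrc1 had 1.68 with E47-ER and 1.45 with bHLH-ER, 1.17-fold higher but close to the level limit. Among the redox subunits, the Rieske iron-sulfur protein Uqcrfs1 was 1.12-fold higher (193 with E47-ER and 174 with bHLH-ER) and cytochrome c1 (Cyc1) 1.06-fold higher (41.1 with E47-ER and 39.3 with bHLH-ER, -0.03 with equal 75th percentiles). The small subunit Uqcr11 had a difference of 0.18, while Uqcrh, the hinge protein that binds cytochrome c1, and Uqcrb both stood at -0.01. Uqcrh had 335 with E47-ER and 341 with bHLH-ER. Uqcrq was not measured, at 0.192 with E47-ER and 0.208 with bHLH-ER, so this probe carried little signal in either culture.

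Complex IV, cytochrome c oxidase, held both genes that passed 1.5-fold and had the widest spread, with 12 measured genes of 15, a median of 0.16 and quartiles of 0.11 and 0.37. That spread rests on these 2 genes, Cox7a2l and Cox6a2. The other 10 measured genes had an interquartile range of 0.17, against 0.20 in complex I. Cox7a2l (Entrez gene 20463) had the largest difference of the whole set. It encodes a relative of the Cox7a subunits that joins complex IV to complex III in respiratory supercomplexes. Its intensity was 91.7 with E47-ER and 55.4 with bHLH-ER, a difference of 0.74 or 1.67-fold. That placed it at the 97.1st percentile of the differences of all measured genes. Of the 327 genes outside the pathway in the members' middle level range, which includes that of Cox7a2l, 10 were 1.5-fold or more higher and 1 was 2-fold or more higher. The difference of Cox7a2l was 0.63 with equal 75th percentiles, 0.63 after loess on level and 0.64 after quantile normalization, past 1.5-fold in each. These settings reuse the same probe and arrays. They shifted the median of all measured genes by -0.11, -0.09 and -0.08, and do not test the difference between cultures.

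The other gene past 1.5-fold was dim. Cox6a2 (Entrez gene 12862), the heart and skeletal muscle isoform of subunit VIa, had 2.50 with E47-ER and 1.67 with bHLH-ER, a difference of 0.59 that lay just past the 1.5-fold line (0.58). It was 0.48 with equal 75th percentiles and 0.39 with 1 added to each intensity before taking logs, below 1.5-fold in both. Its counterpart in most tissues, Cox6a1, had 395 with E47-ER and 356 with bHLH-ER, 1.12-fold higher.

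The other muscle, lung and heart isoforms carried little signal in either culture. Cox4i2, the lung isoform of subunit IV, had 0.452 with E47-ER and 0.350 with bHLH-ER. Cox7a1, a heart and muscle isoform, had 0.295 with E47-ER and 0.251 with bHLH-ER. Cox8b, another heart and muscle isoform, had 0.293 with E47-ER and 0.274 with bHLH-ER. All of these were under the level limit on both arrays. The testis cytochrome c gene Cyct, outside the set, had 0.0354 with E47-ER and 0.0629 with bHLH-ER.

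The ubiquitous subunits of complex IV had differences from 0.03 to 0.40, apart from Cox7b and Cox7c at -0.0014 each. Cox4i1, which with Cox5b and others covers the mitochondrially encoded core, had 231 with E47-ER and 176 with bHLH-ER, 1.32-fold higher. Cox7a2, the counterpart of Cox7a1, had 2.95 with E47-ER and 2.32 with bHLH-ER, 1.28-fold higher. Its probe was dim, and its difference went from 0.36 to 0.26 with 1 added to each intensity. Cox6b1, on the side that faces cytochrome c, had 156 with E47-ER and 133 with bHLH-ER (0.24). Cox8a, Cox6a1, Cox5b and Cox6c had differences from 0.13 to 0.16. Cox5a had 28.6 with E47-ER and 28.3 with bHLH-ER. Cox7c had 271 with E47-ER and 274 with bHLH-ER, and Cox7b 270.0 with E47-ER and 273 with bHLH-ER. With equal 75th percentiles Cox5a, Cox7b and Cox7c stood between -0.08 and -0.11.

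Complex V, the ATP synthase, had all 13 genes with a named probe measured. Their median was 0.09, or -0.02 with equal 75th percentiles, and none passed 1.5-fold. The 4 measured genes of the catalytic F1 head had a median of 0.06, near the 0.08 of the 5 small membrane subunits. The alpha subunit Atp5a1 had 134 with E47-ER and 143 with bHLH-ER (-0.08), and the beta subunit Atp5b, which carries the catalytic sites, had 129 with E47-ER and 130.5 with bHLH-ER (0.00). With equal 75th percentiles Atp5a1 stood at -0.19 and Atp5b at -0.11. The gamma subunit Atp5c1, the rotating shaft, stood at 0.14 and the delta subunit Atp5d at 0.12. In the stalk that holds the head still, Atp5h had 277 with E47-ER and 246 with bHLH-ER (0.18) and Atp5j 107 with E47-ER and 101 with bHLH-ER (0.09). The small membrane subunits Atp5j2, Atp5md, Atp5k, Atp5mpl and Atp5l had differences from 0.04 to 0.22, the highest being that of Atp5j2 (175 with E47-ER and 152 with bHLH-ER).

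The c ring turns as protons pass, and its 2 genes with a named probe had unlike differences. Atp5g1 (Entrez gene 11951) and Atp5g2 (Entrez gene 67942) encode precursors that are processed to the same mature c subunit. Atp5g2 had 219 with E47-ER and 171 with bHLH-ER, 1.29-fold higher. Atp5g1 had 98.8 with E47-ER and 105 with bHLH-ER, 1.05-fold lower. The change of Atp5g2 relative to Atp5g1 was therefore 1.36-fold (0.45 on the log2 scale), a ratio that no constant scaling of the arrays changes. The probe SD of 0.20 gives an SD of 0.29 for such a difference between 2 probes, without any spread between cultures, and the pair was picked with its values known.

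The upstream sequences of 4 of these genes are shown because they are the largest and the lowest difference of the set (Cox7a2l and Ndufb4) and the c ring pair (Atp5g2 and Atp5g1). Each runs 5′ to 3′ on the gene's strand over the 250 bases before the annotated start in RefSeq (GRCm38.p6). For Atp5g1 the last bases, which lie inside a longer transcript, are left off, so that 187 are shown. Capitals mark matches, on either strand, to the letters searched: GCGCA, any base and GCGC for nuclear respiratory factor 1 (NRF1), CCGGAAG for ETS factors such as GABP, CAGGTG for the E-box that E proteins bind, CCAAT, and AAGATGG for YY1. Positions are chr17:83514334-83514583 for Cox7a2l, chr16:37654369-37654618 for Ndufb4, chr15:102671048-102671297 for Atp5g2 and chr11:96075695-96075881 for Atp5g1, all on the minus strand.
Cox7a2l: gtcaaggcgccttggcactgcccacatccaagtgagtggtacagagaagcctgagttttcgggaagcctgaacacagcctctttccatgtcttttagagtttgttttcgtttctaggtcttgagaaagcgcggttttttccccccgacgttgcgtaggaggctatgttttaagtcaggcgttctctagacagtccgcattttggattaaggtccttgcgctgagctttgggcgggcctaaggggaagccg
Ndufb4: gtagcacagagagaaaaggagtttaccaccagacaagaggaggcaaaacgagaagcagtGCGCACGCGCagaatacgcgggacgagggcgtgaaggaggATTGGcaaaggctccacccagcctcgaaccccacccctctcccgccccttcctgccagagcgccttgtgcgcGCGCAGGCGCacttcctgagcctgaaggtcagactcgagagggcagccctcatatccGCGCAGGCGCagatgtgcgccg
Atp5g2: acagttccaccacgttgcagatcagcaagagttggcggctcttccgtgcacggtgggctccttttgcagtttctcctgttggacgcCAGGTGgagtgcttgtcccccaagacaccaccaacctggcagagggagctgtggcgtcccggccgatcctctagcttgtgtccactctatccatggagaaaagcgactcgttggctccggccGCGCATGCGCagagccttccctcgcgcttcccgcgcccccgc
Atp5g1: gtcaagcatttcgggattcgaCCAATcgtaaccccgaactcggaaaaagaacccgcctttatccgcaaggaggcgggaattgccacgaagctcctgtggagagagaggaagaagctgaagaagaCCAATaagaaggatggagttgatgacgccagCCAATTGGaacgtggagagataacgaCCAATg

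None of the letters searched is in the Cox7a2l window. The Ndufb4 window holds 3 NRF1 matches and a CCAAT match on the other strand. The Atp5g2 window holds an E-box starting 164 bases before the start and an NRF1 match starting 42 bases before it, whose letters read the same on both strands. That of Atp5g1 holds 5 CCAAT matches, of which 2 overlap on opposite strands, and neither an NRF1 match nor an E-box. These matches describe the letters and do not show that a factor was bound.

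Promoters were on hand for 50 of the 63 genes. The NRF1 letters were in the 250 upstream bases of 9 of them (18%), against 4.23% of 27025 genes of all kinds. The ETS letters were in 8 (16%), against 7.83%, and CCAAT in 24 (48%), against 37.5%. The E-box CAGGTG was in 9 (18%), against 19.4% of all genes, and the YY1 letters were in 1 (2%), against 5.18%. The 9 measured genes with the E-box (Atp5d, Atp5g2, Atp5k, Cox6b1, Ndufa1, Ndufa13, Ndufa9, Sdhb and Uqcrc1) had a median difference of 0.12, and the 39 measured genes without it one of 0.14. For the NRF1 letters the medians were 0.16 with (9 genes) and 0.13 without (39 genes).

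Among nuclear regulators of respiration genes, 7 of 8 with a probe were measured, none past 1.5-fold, with a median of 0.13. Nrf1, which encodes NRF1, had 6.18 with E47-ER and 4.996 with bHLH-ER (0.32), and Gabpa, the DNA-binding subunit of GABP, 5.93 with E47-ER and 5.08 with bHLH-ER (0.24). Esrra, an orphan nuclear receptor that acts on the same genes, had 1.68 with E47-ER and 2.002 with bHLH-ER (-0.24). The coactivator gene Ppargc1a was not measured (0.0870 with E47-ER and 0.149 with bHLH-ER). The 7 genes of mitochondrial DNA maintenance and transcription had a list median of 0.29, the highest among the pathway lists apart from the tissue isoform list, which rests on Cox6a2 alone. Of these 7, the DNA polymerase gene Polg (0.41), the RNA polymerase gene Polrmt (0.38) and Mterf3 (0.38) led, Tfam, which packages the DNA, stood at 0.07 and Polg2 at -0.25, and none passed 1.5-fold.

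Among the assembly and supply genes, 1 passed 1.5-fold. Of all measured genes, 5.41% were 1.5-fold or more higher and 1.24% lower. Of 6 measured complex IV assembly genes none passed 1.5-fold and the median was 0.08 (-0.03 with equal 75th percentiles). Cox15, needed to make heme A, came closest, at 9.64 with E47-ER and 6.54 with bHLH-ER (1.49-fold). The 12 other assembly factors, which include Ndufaf3 and Ndufaf4, had a median of 0.11 and none past 1.5-fold, led by Ndufaf3. The 2 measured ubiquinone synthesis genes, Coq6 and Coq5, had 0.24 and 0.15. Carriers and pores had a median of -0.02 over 5 genes, none past 1.5-fold, and the largest difference was that of the aspartate-glutamate carrier gene Slc25a13 (1.31-fold lower, 2.08 with E47-ER and 2.75 with bHLH-ER). The 9 genes of the citric acid cycle and pyruvate dehydrogenase had a median of 0.13 and none past 1.5-fold, with Dlst (0.29) at the top and Suclg1 (-0.15) at the bottom. The gene past 1.5-fold was Hspe1, the mitochondrial co-chaperonin, among 13 protein import genes. It had 13.7 with E47-ER and 8.79 with bHLH-ER (1.58-fold higher), and the list median was 0.18.

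Beside other large gene groups, oxidative phosphorylation genes lay in the middle. The 59 mitochondrial ribosomal protein genes had a median of 0.15 and an interquartile range of 0.25. The 30 proteasome subunit genes had a median of 0.08 and an interquartile range of 0.23. The 61 measured cytosolic ribosomal protein genes had a median of 0.01 and an interquartile range of 0.13. Many of them are among the brightest on both arrays. They make up much of the 80 genes outside the pathway above a centred level of 8, whose median was 0.0087. The groups were not matched for level, so group and brightness cannot be told apart here. None of these 150 genes passed 1.5-fold, where 5.41% of all measured genes were higher and 1.24% lower by that much. With equal 75th percentiles the medians were 0.02 for oxidative phosphorylation, 0.04 for the mitochondrial ribosome, -0.03 for the proteasome and -0.09 for the cytosolic ribosome. No test of the differences between these groups can be given with 1 array per construct.

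**Figure D4:**
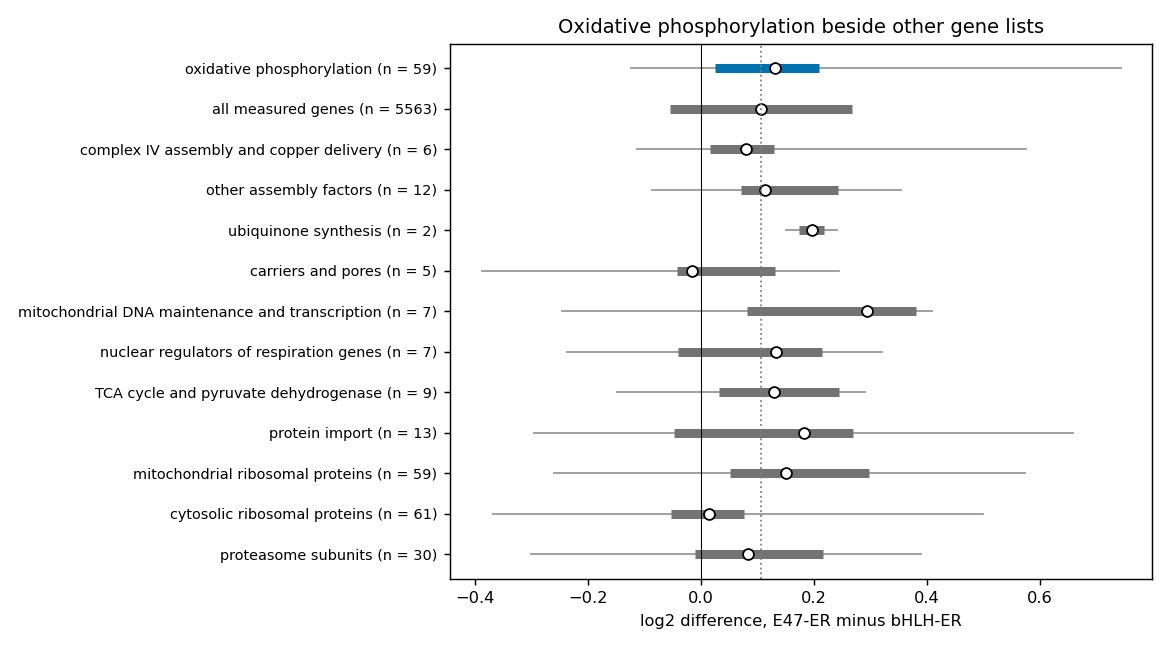
Median (open point), quartiles (thick bar) and full range (thin line, not drawn for all measured genes) of the log2 difference, E47-ER minus bHLH-ER, for oxidative phosphorylation genes, all measured genes and 11 other lists, with the number of measured genes. The bar of oxidative phosphorylation lies inside that of all measured genes, whose median is the dotted line.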

How the data were processed

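The intensities were deposited by the authors as 1 linear value per probe and array, for 20289 probes. They run from -0.0609 to 555 on the E47-ER array and from -0.0829 to 529 on the bHLH-ER array, with medians of 0.939 on the E47-ER array and 0.950 on the bHLH-ER array. Such small negative values and medians near 1 point to background subtraction and scaling before deposit. The sources used here do not say how, and hold no detection calls. Probes without a positive value on both arrays (668) were left out. The median log2 intensity of the 19621 others was subtracted on each array, and probes of a gene were averaged. Gene symbols came from the platform annotation, which named 10349 probes. No control probes are marked, and no test was possible with 1 array per construct. The members and lists were chosen with earlier results of these data known. Named genes are, per complex, those past 1.5-fold, the 3 highest, the 3 lowest, the brightest and the dimmest, and all unmeasured members, with 1 or more leading genes per list. Other genes were picked with their values known. The scripts were checked on simulated arrays with known fold changes, which says nothing about the reported differences. Python 3.11.15, pandas 2.3.3 and statsmodels 0.14.6 (loess, span 0.3) were used. Alternatives covered scaling, quantile normalization, loess on level, a pseudocount of 1, the level limit, the choice of probe and symbol, and assembly factors. RefSeq GRCm38.p6 gave current symbols and the promoter sequences, and no build is named for the array.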

Additional observations from a re-analysis of the deposited data

How the results depend on the processing

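The count of genes below 0 depended on the scaling. It was 11 of 59 as reported (18.6%, against 33.3% of all measured genes), 26 with equal 75th percentiles (44.1% against 50.3%), 28 with quantile normalization (47.5% against 45.7%) and 26 after loess on level (44.1% against 46.7%), so the share lay above that of all measured genes with quantile normalization. Equal 75th percentiles shifted the median of all measured genes by -0.11, and the members' median (0.13 as reported) to 0.02, so that 15 members changed sign. The members' median became 0.00083 with quantile normalization, 0.03 after loess and 0.12 with 1 added to each intensity. The medians of complex II, complex V and cytochrome c fell below 0 with equal 75th percentiles, quantile normalization and loess. The difference between the members' median and that of all measured genes stayed between -0.02 and 0.06 in the 9 alternatives. Of the 2 genes past 1.5-fold, 1 remained, Cox7a2l, under equal 75th percentiles, quantile normalization, loess, the pseudocount, and a level limit at the 75th percentile. Cox6a2 is under that limit and fell below 1.5-fold in the other settings. No member passed 2-fold in any alternative. With equal 75th percentiles, 52 of all 5563 measured genes were 2-fold or more higher and 24 lower. With the pseudocount the background was 40 higher and 5 lower of 5696, and with no level limit 496 and 420 of 9942. The tissue isoform list went to a median of 0.25 when unmeasured genes were let in, because it then held more genes than Cox6a2. No paired analysis was possible because each construct has 1 array, which also means that no replicate can be left out. The number of arrays limits the precision.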
